A study of Arabidopsis thaliana with 12 samples.

Results

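The comparison described here asks what mannitol does to Arabidopsis thaliana seedlings that are held in warmth. It sets 3 libraries of seedlings at 27°C with mannitol against 3 libraries at 27°C alone, 6 of the 12 libraries of the series, and the members were chosen by these treatment labels. All seedlings were wild type Columbia and were raised at 21°C for 7 days in days of 8 h light and 16 h dark. At 1 h after lights on (ZT1) they were moved to 27°C with mannitol, moved to 27°C without it, or left at 21°C, again with mannitol or without, and all were harvested at ZT13, in the dark. The sources used here do not give the mannitol concentration. RNA came from whole seedlings, so fewer cells of a type and less RNA per cell cannot be told apart. All groups were harvested at 1 time, so for cycling transcripts a changed level and a shifted phase cannot be told apart. The labels number the replicates 1 to 3 without saying whether they are separate cultures, so the p-values measure only the spread between these samples.

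Mannitol, a sugar alcohol, draws water away from roots, and laboratories use it as a stand-in for drought. Plant cells answer osmotic stress partly through abscisic acid, which switches on transcripts of dehydrins and other protective proteins, and partly by making compatible solutes such as proline. Salicylic acid is a hormone best known from defense against biotrophic pathogens, where WRKY transcription factors, pathogenesis-related (PR) proteins and indole compounds are turned on. Moderate warmth makes seedlings elongate through the transcription factor PIF4, which raises auxin synthesis, and the evening complex of ELF3, ELF4 and LUX holds PIF4 back.

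The values are TPM, a relative abundance per gene length that is scaled to the same sum in each library. Reads rebuilt from the values came to 14473785 to 14572531 per library with mannitol and 13700143 to 13959837 without it. The 59 tested nuclear photosynthesis genes took 9.68 ± 0.13% of all TPM with mannitol and 14.4 ± 0.40% at 27°C alone (SD, n = 3 each; exact permutation p = 0.1, two-sided, the smallest that 3 against 3 can give). TPM has a fixed sum, so a fall of abundant transcripts makes the other genes read higher, and the median log2 difference of all 20005 genes tested was 0.17. Rescaling each library by its median ratio to the other libraries lowered the log2 differences by a median of 0.185, less for genes near 0 TPM, and brought the median of all genes to -0.01. Calls are therefore given on both scales, and "in both scalings" marks a gene called the same way with and without the rescaling.

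With mannitol, 5544 genes were higher (27.7% of those tested) and 1361 were lower (6.8%) at an adjusted p below 0.05 by limma on log2(TPM + 1). With rescaling 2346 were higher (11.7%) and 2983 lower (14.9%). Rescaling moved the differences at 27°C downward. The genes called in both scalings are therefore the 2346 called higher with rescaling and the 1361 called lower without it. For risen genes the rescaled call is thus the stricter one, and for fallen genes the second scaling adds no further check. A change of at least 2-fold on the log2(TPM + 1) scale was called for 698 higher genes (3.49%) and 136 lower genes (0.68%), against 473 (2.36%) and 208 (1.04%) with rescaling. In what follows, a log2 difference is on the log2(TPM + 1) scale, 27°C with mannitol minus 27°C, ± the standard error of the fit; it understates the ratio of genes near 0 TPM. Unless stated, each gene named as risen or fallen was called in both scalings.

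The 10 genes that rose most by the naming rule held a chitinase family gene, a lipid transfer protein and a peroxidase family gene, and several genes with no known role. AT2G43620, annotated as a chitinase family protein, had 153, 171 and 165 TPM with mannitol, against 2.02, 2.49 and 3.13 TPM at 27°C alone (log2 difference 5.54 ± 0.17, adjusted p = 3.13e-11). AT3G28510, annotated as a P-loop nucleoside triphosphate hydrolase, had 27.7, 32.4 and 30.3 TPM with mannitol, while at 27°C 2 libraries were listed at 0 and the other at 0.169 TPM. The groups were far apart for both genes. LTP3, a lipid transfer protein, rose by 3.76 ± 0.16, the peroxidase family gene AT4G36430 by 3.90 ± 0.23, ADS4, a fatty acid desaturase-like gene, by 4.03 ± 0.20 and SAG14, a blue copper protein known from senescing leaves, by 3.86 ± 0.33. AT4G18253, annotated as a receptor kinase-like protein, rose by 4.66 ± 0.21. The other 3 of the 10 with the largest rises, AT5G42530 at 4.74 ± 0.21, AT1G65500 at 4.3 ± 0.17 and AT5G44568 at 3.62 ± 0.15, are annotated only as uncharacterized proteins.

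The upstream sequences of 3 strongly risen genes show the letters to which WRKY factors bind. The W-box, searched as TTGACC or TTGACT on both strands, lay in 46.6% of the windows of 250 bases before the start of 472 genes that were at least 2-fold higher in both scalings. It lay in 21.3% of 136 windows of genes at least 2-fold lower in both scalings and in 28.4% of all 19893 tested nuclear genes with a window. Of the 10 genes that rose most, 4 held a W-box in the window, as did 13 of the 28 tested WRKY genes. The 3 genes shown are thus examples that hold the motif, not typical windows. The windows below are from the TAIR10.1 genome and RefSeq annotation, 5′ to 3′ toward the gene, all on the minus strand; capitals mark W-boxes, and in the first also 1 ACCGAC, the drought-responsive element (DRE). They lie at chr2:18095094-18095343 for AT2G43620, chr5:8154711-8154960 for WRKY30 and chr4:12393983-12394232 for WRKY53.
AT2G43620: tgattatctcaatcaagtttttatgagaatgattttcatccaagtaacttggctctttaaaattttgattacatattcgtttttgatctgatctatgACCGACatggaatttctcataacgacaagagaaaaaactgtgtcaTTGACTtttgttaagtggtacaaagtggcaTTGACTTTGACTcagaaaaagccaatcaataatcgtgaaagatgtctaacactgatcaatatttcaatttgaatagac
WRKY30: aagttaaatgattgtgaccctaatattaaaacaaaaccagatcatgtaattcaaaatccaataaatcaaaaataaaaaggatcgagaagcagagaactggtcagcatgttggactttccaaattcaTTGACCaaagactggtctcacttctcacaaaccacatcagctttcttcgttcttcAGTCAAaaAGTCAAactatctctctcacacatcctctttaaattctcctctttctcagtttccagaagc
WRKY53: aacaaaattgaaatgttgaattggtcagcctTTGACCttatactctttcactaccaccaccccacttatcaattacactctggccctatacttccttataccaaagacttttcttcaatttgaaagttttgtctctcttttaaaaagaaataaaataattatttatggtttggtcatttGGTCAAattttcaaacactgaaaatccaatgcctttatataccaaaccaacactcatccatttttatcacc

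Of the other motifs searched on both strands, the heat shock element GAANNTTC was in 16.5% of the windows of the risen genes, 9.56% of those of the fallen genes and 9.25% of all. The G-box CACGTG, the element bound by PIF and abscisic acid factors, was in 5.3%, 8.09% and 7.46%. The abscisic acid element ACGTGGC or ACGTGTC, which can overlap the G-box, was in 5.3%, 5.15% and 7.37%. The DRE was in 4.45%, 5.15% and 5.15%, the GCC box GCCGCC in 3.18%, 0.735% and 1.91%, and the evening element AAAATATCT in 2.12%, 4.41% and 2.47%. These shares describe letters in the windows, not binding.

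**Figure D1:**
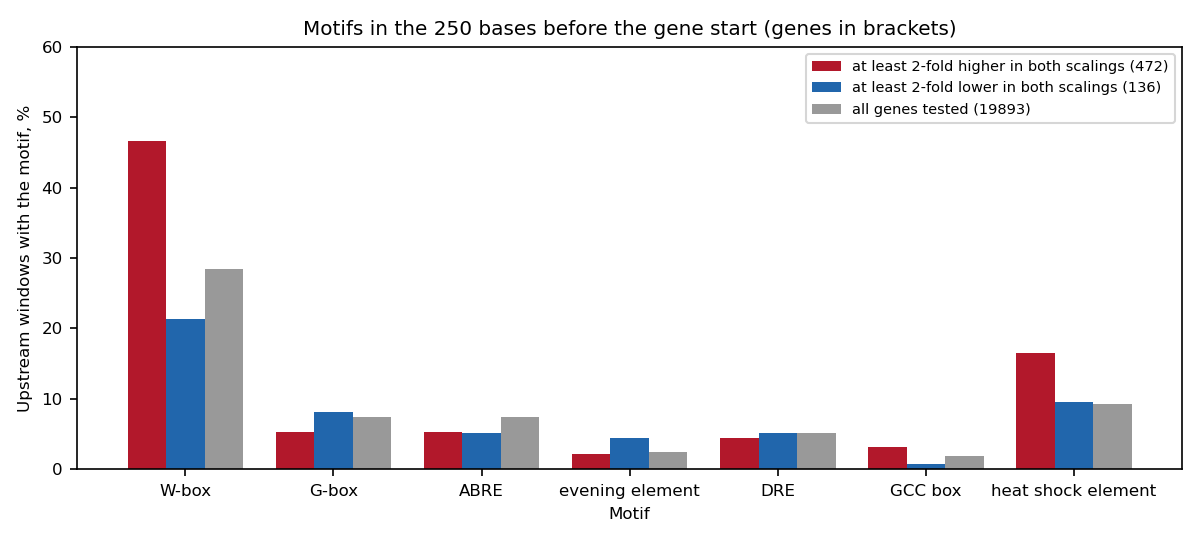
Share of 250-base windows before the gene start that hold each of 7 motifs on either strand, for 472 genes at least 2-fold higher with mannitol at 27°C in both scalings (red), 136 genes at least 2-fold lower (blue) and all 19893 windows (grey). The W-box was in 46.6%, 21.3% and 28.4% of these windows.

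WRKY factors and salicylic acid transcripts rose together in warm seedlings given mannitol. Of 28 tested WRKY genes, 26 were higher and 0 lower, 25 higher in both scalings, with a median log2 difference of 1.03 beside 0.17 for all genes. WRKY30 had 14.7, 16.1 and 14.7 TPM with mannitol and 0.886, 0.416 and 0.220 TPM at 27°C alone (3.45 ± 0.15, adjusted p = 8.23e-10). WRKY53, a regulator of senescence and defense, had 16.8, 18.6 and 17.7 TPM with mannitol, against 2.41, 1.54 and 1.09 TPM without it (2.83 ± 0.21, adjusted p = 1.95e-07). For both genes, every library with mannitol lay above every library without it. WRKY60 rose by 2.25 ± 0.17. In the list of salicylic acid synthesis and breakdown, 17 of 25 were higher and 1 lower, 13 and 1 in both scalings, with a median of 0.56. ICS1, the main synthesis enzyme, had 12.6, 11.7 and 11.9 TPM with mannitol and 4.42, 5.05 and 5.87 TPM without it (1.1 ± 0.13, adjusted p = 1.99e-05), with no overlap. CBP60G, a transcription factor that activates ICS1, rose by 2.16 ± 0.19. Genes for breakdown of the hormone rose too, DLO1 by 2.76 ± 0.26 and DMR6 by 1.75 ± 0.15, both salicylic acid hydroxylases. Of the phenylalanine route, PAL3 fell by 0.48 on the log2 scale, PAL4 rose by 0.53 ± 0.12, PAL1 (0.01) did not pass, and PAL2 (-0.12) passed only with rescaling (-0.31).

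Responses downstream of the hormone were higher as well, although the PR genes stayed at low levels. In the response list 18 of 19 tested members were higher and 0 lower, 14 higher in both scalings (median 0.84). PR5, a thaumatin-like defense protein, had 13.9, 19.4 and 14.2 TPM with mannitol and 2.09, 2.21 and 1.43 TPM at 27°C alone (2.53 ± 0.16, adjusted p = 2.37e-08). PR2, a glucanase, had 3.51, 4.4 and 4.66 TPM with mannitol and was listed at 0 in the 3 libraries without it, so no fold is given. PR1, the usual marker of this response, was at 0.191, 0.574 and 0.189 TPM with mannitol and listed at 0 without it, below the limit for testing. PNP-A, a secreted natriuretic peptide-like protein, rose by 2.23 ± 0.22. Among pattern receptors and immune signaling genes 23 of 34 were higher and 0 lower, 19 higher in both scalings (median 0.51). The wall-associated kinase WAK1 rose by 2.3 ± 0.20, the receptor-like kinase CRK5 by 2.23 ± 0.15 and the receptor partner SOBIR1 by 1.33 ± 0.12.

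**Figure D2:**
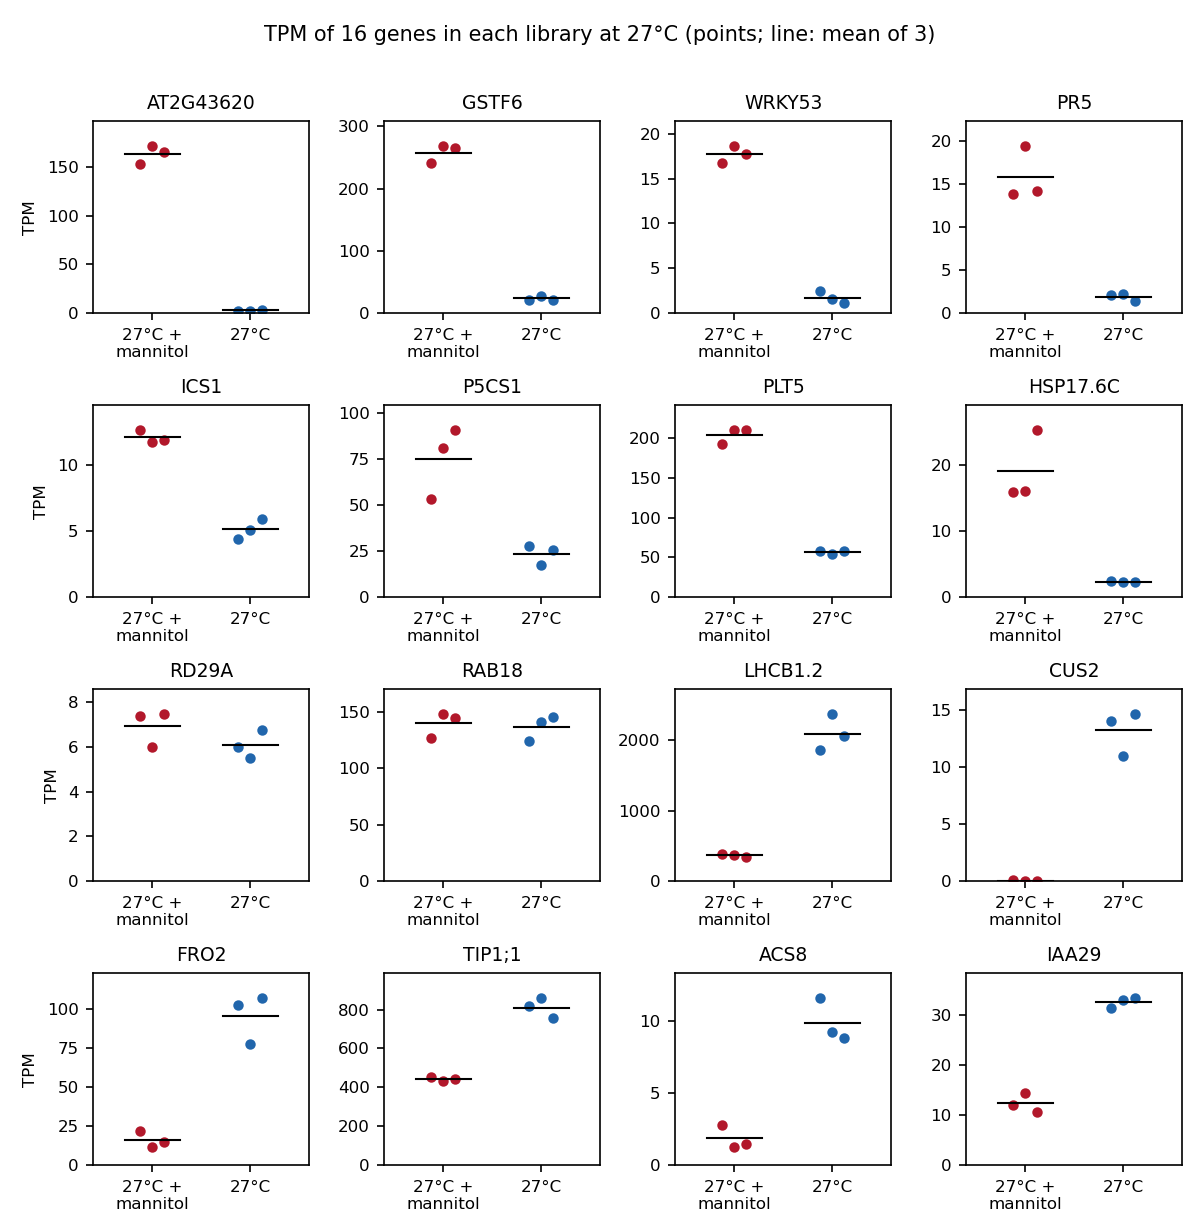
TPM of 16 genes (vertical axes, linear from 0) in each library at 27°C with mannitol (red) and at 27°C (blue); lines are means of 3 libraries. The groups do not overlap for 14 of the genes, and they overlap for RD29A and RAB18.

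Genes for indole defense compounds, which are made from tryptophan, rose over nearly the whole pathway. Of 31 tested, 27 were higher and 0 lower, 24 higher in both scalings, with a median of 0.80. CYP71A13, which makes the nitrile precursor of camalexin, had 6.21, 3.82 and 3.85 TPM with mannitol and was listed at 0 in the 3 libraries without it. IGMT2, a methyltransferase of indole glucosinolates, had 32.8, 39.8 and 31.3 TPM with mannitol, against 3.65, 3.94 and 2.56 TPM (3.03 ± 0.21, adjusted p = 8.29e-08). The summed TPM of the list ran from 3224 to 3410 with mannitol and from 1653 to 1741 at 27°C alone, so the groups did not overlap. Glutathione transferases, which conjugate glutathione to reactive or toxic compounds, had 19 of 31 higher and 2 lower, 16 and 2 in both scalings (median 0.56). GSTF6, which serves camalexin synthesis, had 241, 268 and 265 TPM with mannitol, against 20.9, 27.9 and 21 TPM (3.43 ± 0.10, adjusted p = 2.12e-11). GSTF3 rose by 3.31 ± 0.19 and GSTU12 by 3.29 ± 0.16, while GSTU20 fell by 0.60 and GSTF4 by 0.75 on the log2 scale. Reads shared between similar copies, such as GSTF2 and GSTF3 or CYP71A12 and CYP71A13, may have been split in a way that the sources used here do not describe, so these genes are uncertain.

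For aliphatic glucosinolates, which are made from methionine, 8 of 28 were higher and 10 lower, 5 and 10 in both scalings (median -0.20). The synthesis genes MAM1, a chain-elongating enzyme, and CYP79F1, the entry enzyme, fell by 1.51 and 1.56. CYP79F1 was low, at 0.815, 0.102 and 0.353 TPM with mannitol and 5.02, 3 and 1.87 TPM at 27°C alone. Its split of reads with the neighbouring CYP79F2 is uncertain. Also lower in both scalings were CYP83A1 (-1.21), FMOGS-OX1 (-0.63), IPMI2 (-0.61) and UGT74C1 (-0.22). FMOGS-OX1 was near the floor, at means of 0.418 TPM with mannitol and 1.16 TPM at 27°C alone. The related MAM3 (-0.22) did not pass, and CYP79F2 (-0.27) passed only with rescaling (-0.45), as did IPMI1, IMD1 and SOT18. Nor did BCAT4 (0.007), BAT5 (-0.13) or MYB28 (0.02) pass. MAM1 had 14.8, 9.61 and 12 TPM with mannitol, against 41.6, 30.7 and 36.8 TPM at 27°C alone, with no overlap. The 5 members higher in both scalings were NAI2 (0.87 ± 0.05) and BGLU23 (0.72 ± 0.05), known from endoplasmic reticulum bodies, the nitrile-specifier NSP1 (0.79 ± 0.06), the synthesis sulfotransferase SOT17 (0.72 ± 0.13) and the transporter GTR1 (0.63 ± 0.09). Members outside synthesis went both ways, since ESM1 (-1.03), ESP (-0.63) and TGG2 (-0.40) were lower in both scalings. ESP was near the floor, at means of 0.301 TPM with mannitol and 1.02 TPM at 27°C alone. BGLU23, an abundant beta-glucosidase, had 4815, 4654 and 4431 TPM with mannitol and 2747, 2731 and 2943 TPM without it. BGLU18, a related enzyme known to release abscisic acid from its glucose ester, had 5.03, 5.35 and 4.68 TPM with mannitol, against 44.5, 37 and 43.3 TPM (-2.82 ± 0.12, adjusted p = 3.71e-10). Among oxidant enzymes, with 11 of 32 higher and 6 lower in both scalings, the copper/zinc superoxide dismutases CSD1 and CSD2 rose by 1.85 ± 0.10 and 2.13 ± 0.10 and the iron superoxide dismutase FSD1 fell by 1.1 on the log2 scale.

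Osmotic stress transcripts did not move as 1 block. PLT5, a plasma membrane carrier that takes up mannitol and other polyols, had 193, 210 and 210 TPM with mannitol, against 58.5, 54.8 and 57.9 TPM at 27°C alone (1.82 ± 0.07, adjusted p = 1.26e-10). P5CS1, the rate-limiting enzyme of proline synthesis, had 53.4, 81.1 and 90.6 TPM with mannitol and 27.8, 17.3 and 25.6 TPM without it (1.62 ± 0.18, adjusted p = 6.80e-06). All mannitol libraries were above all others for both genes, and P5CS1 varied more among them. In the proline list 8 of 12 were higher and 1 lower, 4 and 1 in both scalings. P5CDH, which degrades proline further, rose by 0.79 ± 0.09 and the transporter PROT3 fell by 1.11. Among osmolyte and sugar transport genes 11 of 26 were higher and 7 lower, 8 and 7 in both scalings. The hexose carrier STP13 rose by 1.57 ± 0.14 and the phloem sucrose carrier SUC2 fell by 0.52.

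The classic abscisic acid markers differed among themselves. NCED3, whose enzyme sets the rate at which abscisic acid is made, was at 2.27, 4.93 and 3.87 TPM with mannitol and 2.46, 2.43 and 2.25 TPM at 27°C (0.43 ± 0.21, adjusted p = 0.116); without mannitol replicate 1 it passed, at 0.67 (adjusted p = 0.017). RD29A had 7.36, 6.01 and 7.45 TPM with mannitol and 5.98, 5.50 and 6.77 TPM without it, and RAB18, a dehydrin, had 127, 148 and 145 TPM against 124, 141 and 146 TPM. Both overlapped between the groups, at 0.16 ± 0.12 (adjusted p = 0.31) and 0.03 ± 0.33 (adjusted p = 0.949), and the sign of both turned with rescaling, to -0.01 and -0.16. RD29B had 53, 45.4 and 51 TPM with mannitol, below the 76.7, 65.4 and 66.8 TPM without it. Its difference of -0.48 ± 0.40 did not pass with the spread of all 12 libraries (adjusted p = 0.37) and passed in a fit of the 6 libraries at 27°C alone (adjusted p = 0.00441). RD22, a dehydration marker, had 286, 306 and 338 TPM with mannitol and 61, 59.1 and 66.8 TPM without it (2.29 ± 0.08, adjusted p = 1.26e-10), with no overlap. Over the abscisic acid list 23 of 51 were higher and 4 lower, 14 and 4 in both scalings, and the median was 0.30, or 0.12 with rescaling. The regulators MYB96 and ABI3 rose by 1.34 ± 0.13 and 1.34 ± 0.21, and the dehydrins COR47 and ERD10 fell by 0.77 and 0.44. Without mannitol replicate 1 or 27°C replicate 3, 2 members were lower in place of 4.

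Photosynthesis transcripts fell as a group, and most of all those of the light-harvesting antenna. Of 59 nuclear photosynthesis genes tested, 52 were lower and 0 higher in both scalings, with a median of -0.48, or -0.67 with rescaling. LHCB1.2, an antenna protein of photosystem II, had 390, 366 and 346 TPM with mannitol, against 1853, 2365 and 2055 TPM at 27°C alone (-2.50 ± 0.08, adjusted p = 3.45e-11). LHCB1.5 had 636, 691 and 630 TPM with mannitol and 2808, 2995 and 2639 TPM without it, and LHCB3 had 130, 123 and 124 TPM against 432, 459 and 447 TPM. The groups did not overlap for any of the 3. Values of the nearly identical LHCB1 copies are uncertain in the same way, whereas LHCB3 has no such copy.

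Within the apparatus the size of the fall differed by place. Of 14 LHCB genes 10 fell, with a median of -0.93 and a range of -2.50 to 0.25, and the 4 that did not pass were LHCB2.1 (-0.10), LHCB2.2 (0.25), LHCB2.3 (-0.33) and LHCB4.3 (0.08). All 6 LHCA genes, the antenna of photosystem I, fell (median -0.64), and so did all 11 photosystem I subunits (median -0.61). Of 9 photosystem II genes 8 fell (median -0.44), of 5 electron carrier genes 4 (median -0.47) and of 14 carbon fixation genes 13 (median -0.35). RBCS1A, which encodes a Rubisco subunit and was the most abundant transcript in all 12 libraries, had 20159, 19210 and 19252 TPM with mannitol, against 28413, 29803 and 28139 TPM, without overlap. Genes encoded in the chloroplast itself took 0.126 ± 0.0085% of TPM with mannitol and 0.132 ± 0.0129% without it (exact permutation p = 0.6).

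**Figure D3:**
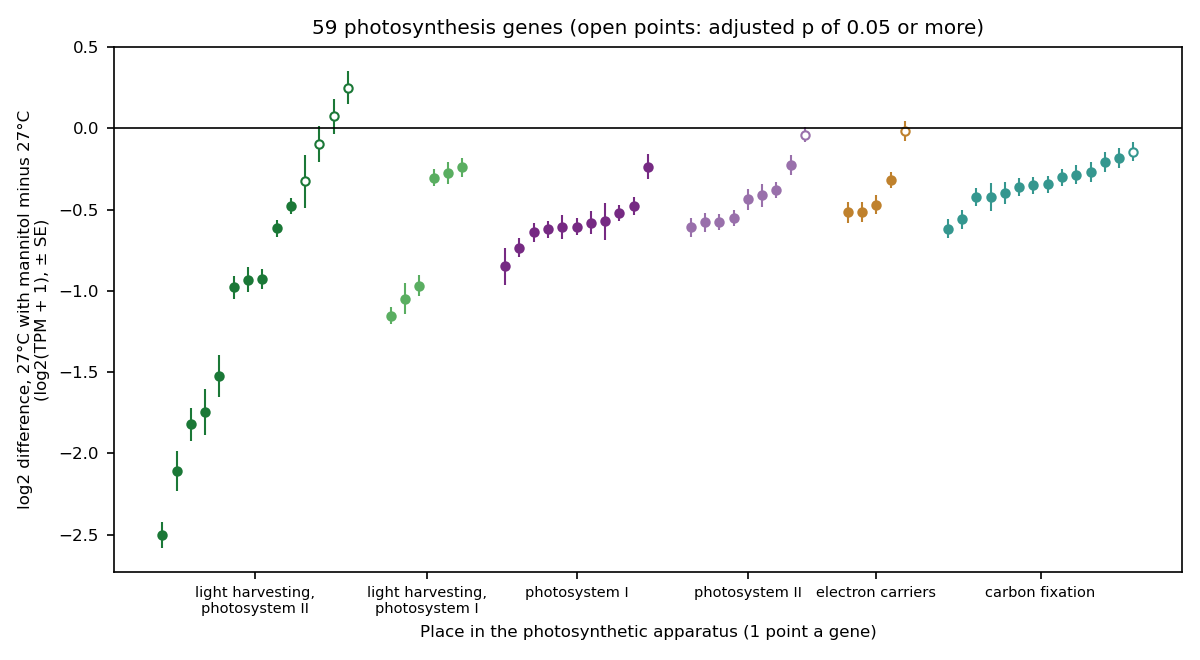
Log2 difference (27°C with mannitol minus 27°C, log2(TPM + 1), ± SE) of 59 photosynthesis genes, 1 point a gene, grouped by place in the apparatus and sorted within each group; filled points had an adjusted p below 0.05 with limma. Differences reached -2.50 among photosystem II antenna genes and -0.62 among carbon fixation genes.

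Genes of the plant surface changed strongly in both directions. CUS2, a GDSL lipase family gene of cutin formation, was listed at 0 in 2 libraries with mannitol and at 0.0729 TPM in the other, against 14, 11 and 14.6 TPM at 27°C alone. CER1, the enzyme of wax alkane synthesis, had 2.11, 2.74 and 2.62 TPM with mannitol, against 23.7, 15.6 and 20.7 TPM (-2.58 ± 0.15, adjusted p = 1.02e-08). Lipid transfer proteins, small secreted carriers of lipids, rose instead: LTP2 had 2169, 2382 and 2670 TPM with mannitol, against 210, 255 and 230 TPM (3.37 ± 0.10, adjusted p = 2.12e-11). All 3 genes were separated without overlap. LTP4 rose by 2.47 ± 0.35, and LTP5 fell by 1.06. In all, 17 of 38 wax and cuticle genes were higher and 6 lower, 11 and 6 in both scalings. Suberin, the root barrier polyester, had 13 of 21 genes higher and 2 lower, 10 and 2 in both scalings, with the synthesis enzymes FAR5 at 1.17 ± 0.13, GPAT7 at 1.02 ± 0.19 and CYP86B1 at 0.97 ± 0.13. FAR1, another fatty acyl reductase, fell by 0.88 and CASP5, of the Casparian strip, by 0.68; CASP5 was lost without mannitol replicate 2, at -0.57 (adjusted p = 0.0583), which left 1 lower suberin gene. Markers of the root tip and root surface had 5 of 16 higher and 0 lower, 2 higher in both scalings. These higher shares lay close to the 27.7% of all genes, or 11.7% in both scalings. The markers summed to 293 to 320 TPM with mannitol, against 223 to 231 TPM. The largest change within this sum was PHT1;1, at 104, 110 and 108 TPM with mannitol and 64.6, 51 and 66 TPM without it. Others, such as COBL9 (0.02) and EXPA7 (-0.02), did not pass. The count of 5 became 2 without mannitol replicate 2 or 3 and 3 without 27°C replicate 2 or 3. No root marker was at 0 in all 6 libraries, and the part of root share in these results was not tested.

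Most water channels and the root iron uptake genes fell. Of 27 tested aquaporins 16 were lower and 4 higher, 16 and 3 in both scalings (median -0.35). The vacuolar channel TIP1;1 had 455, 431 and 444 TPM with mannitol, against 816, 857 and 756 TPM at 27°C alone (-0.87 ± 0.07, adjusted p = 5.54e-07). The plasma membrane channel PIP2;3 fell by 0.99 on the log2 scale and NIP6;1, a boron carrier of the same family, by 0.84. NIP5;1, the boron uptake channel, rose by 1.12 ± 0.10 and PIP2;5 by 0.95 ± 0.11. Near-identical PIP copies are uncertain in their split of reads.

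Among 36 iron genes 12 were lower and 6 higher, 12 and 5 in both scalings. FRO2, the ferric reductase of the root surface, had 22.1, 11.3 and 14.6 TPM with mannitol, against 103, 78 and 107 TPM without it (-2.54 ± 0.38, adjusted p = 0.000162). CYP82C4, which makes the iron-binding coumarin sideretin, had 15.2, 10.4 and 7.24 TPM with mannitol and 55.5, 63.9 and 70.5 TPM without it, and S8H, which acts before it, had 8.53, 3.86 and 2.99 TPM against 17, 28 and 26.6 TPM. The libraries of the groups did not overlap for any of them. Outside the naming rule, and chosen after their values were seen, the iron transporter IRT1 had 79.5, 51 and 60.2 TPM with mannitol, against 243, 221 and 257 TPM, and their regulator FIT had 7.24, 6.08 and 9.37 TPM, against 19.1, 16.9 and 17.8 TPM. NAS4, which makes the metal chelator nicotianamine, rose by 1.6 ± 0.17, while its relative NAS2 fell by 1.62. The regulator PYE and the phloem iron carrier OPT3 rose by 0.66 ± 0.14 and 0.61 ± 0.10. Nitrogen genes ran the other way from iron uptake, with 14 of 27 higher and 3 lower, 12 and 3 in both scalings. The root nitrate carrier NRT2.1 had 6.07, 5.10 and 4 TPM with mannitol and 0.307, 0.433 and 0.381 TPM without it (2.13 ± 0.22, adjusted p = 3.83e-06), and its partner NRT3.1 rose by 1.19 ± 0.12. The chloroplast glutamine synthetase GS2 fell by 0.49, and the 3 lower became 5 without 27°C replicate 2.

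Several growth transcripts that warmth induces fell. PIF4 had 4.85, 4.62 and 5.93 TPM with mannitol, against 10.7, 9.01 and 10.6 TPM at 27°C alone, and YUC8, the auxin synthesis enzyme downstream of it, had 11.5, 10.5 and 9.83 TPM against 17.7, 25.8 and 20.8 TPM. Neither gene's groups overlapped. The auxin list had 21 of 52 members lower and 8 higher, 21 and 4 in both scalings (median -0.22). The early auxin response repressors IAA29 and IAA6 fell by 1.34 and 1.77 and the small auxin-induced SAUR66 by 1.28, the last with close copies whose reads may be split. The auxin oxidases DAO1 and DAO2, which inactivate the hormone, rose by 0.71 ± 0.12 and 0.84 ± 0.16. In the list of warm growth regulators 9 of 36 were lower and 8 higher, 9 and 3 in both scalings. In the auxin and warm growth lists the higher shares lay below the 27.7% of all genes, or 11.7% in both scalings. The lower shares of both lists lay above the 6.8% of all genes. HFR1 and HY5, which oppose PIF activity, rose by 0.69 ± 0.16 and 0.53 ± 0.11. Among the evening complex genes ELF3 was at 0.47 ± 0.10, and ELF4, at 0.31 ± 0.08, passed only without rescaling (0.12, adjusted p = 0.376, with it). LUX had 29.4, 29.4 and 28.4 TPM with mannitol, below the 43.3, 40.7 and 41.9 TPM without it. Of 19 clock genes 2 were higher and 4 lower, 0 and 4 in both scalings, with CDF5 at -1.33 and PRR3 at -0.37. The higher clock shares also lay below those of all genes, and the lower share above. The 2 higher became 1 without mannitol replicate 1 or 2 or 27°C replicate 2.

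Cell wall genes changed in both directions. Of 30 wall-loosening genes 9 were higher and 10 lower, 6 and 10 in both scalings. The 9 higher lay close to the 27.7% of all genes, and the 6 above the 11.7% in both scalings. The lower share lay far above the 6.8% of all genes. The xyloglucan enzymes XTH15 and XTH6 fell by 1.81 and 1.78; XTH15 had 24.1, 22.9 and 23.1 TPM with mannitol, against 86.2, 86.7 and 79.6 TPM. EXPA16, an expansin among the 10 largest falls, had 8.28, 5.65 and 8.53 TPM with mannitol and 45.2, 46.8 and 41.2 TPM without it (-2.44 ± 0.12, adjusted p = 2.46e-09). Both were separated without overlap, while the expansins EXPA15, EXPB3 and EXPA4 rose by 1.12 ± 0.10, 1.08 ± 0.09 and 0.92 ± 0.06. Other genes of the 10 largest falls were AT2G33850, an E6-like protein, at -3.01 ± 0.10, AT4G15690, a thioredoxin family protein, at -2.76 ± 0.20, and AT3G16670, of the pollen Ole e 1 and extensin family, at -2.62 ± 0.12.

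Ethylene synthesis genes changed in both directions. The enzyme ACS makes the ethylene precursor, and ACS8 had 2.82, 1.25 and 1.48 TPM with mannitol, against 11.6, 9.27 and 8.86 TPM at 27°C alone (-1.97 ± 0.20, adjusted p = 3.04e-06). ACS4 fell by 1.85 and ACS11 by 1.31, whereas ACS7 had 4.85, 7.64 and 6.51 TPM with mannitol and 0.889, 0.668 and 1.68 TPM without it (1.83 ± 0.21, adjusted p = 1.34e-05). None of the 4 genes had overlapping groups. The factors RAP2.6L and ERF5 rose by 1.6 ± 0.13 and 1.54 ± 0.16, and of 35 ethylene and ERF genes 12 were higher and 4 lower, 8 and 4 in both scalings. In the brassinosteroid and gibberellin list 7 of 30 were higher and 5 lower, 2 and 5 in both scalings. The higher shares lay below the 27.7% of all genes, or 11.7% in both scalings, and the lower share above the 6.8%. The gibberellin-responsive GASA4 rose by 1.22 ± 0.07, and GA20OX1, a gibberellin synthesis enzyme, fell by 1.41. The 5 lower became 3 without mannitol replicate 1 or 2 or without 27°C replicate 3.

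Heat shock transcripts were higher with mannitol although both groups stood at 27°C. Of 36 tested, 21 were higher and 1 lower, 13 and 1 in both scalings (median 0.33, or 0.16 with rescaling). The small heat shock proteins, chaperones that bind unfolding proteins, rose most. HSP17.6C had 15.9, 16.1 and 25.2 TPM with mannitol and 2.35, 2.21 and 2.34 TPM without it (2.57 ± 0.19, adjusted p = 1.25e-07), and HSP17.4 had 35.8, 32 and 57 TPM against 5.89, 9.75 and 8.89 TPM. HSP17.6A had 13.7, 20 and 35 TPM with mannitol and 5.01, 7.53 and 2.19 TPM without it. Mannitol replicate 3 was the highest for all 3 genes, and none of them overlapped between the groups. HSP17.6A did not pass with a pseudocount of 0.1 (adjusted p = 0.0507). The heat shock factor HSFA3 fell by 0.62.

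**Figure D4:**
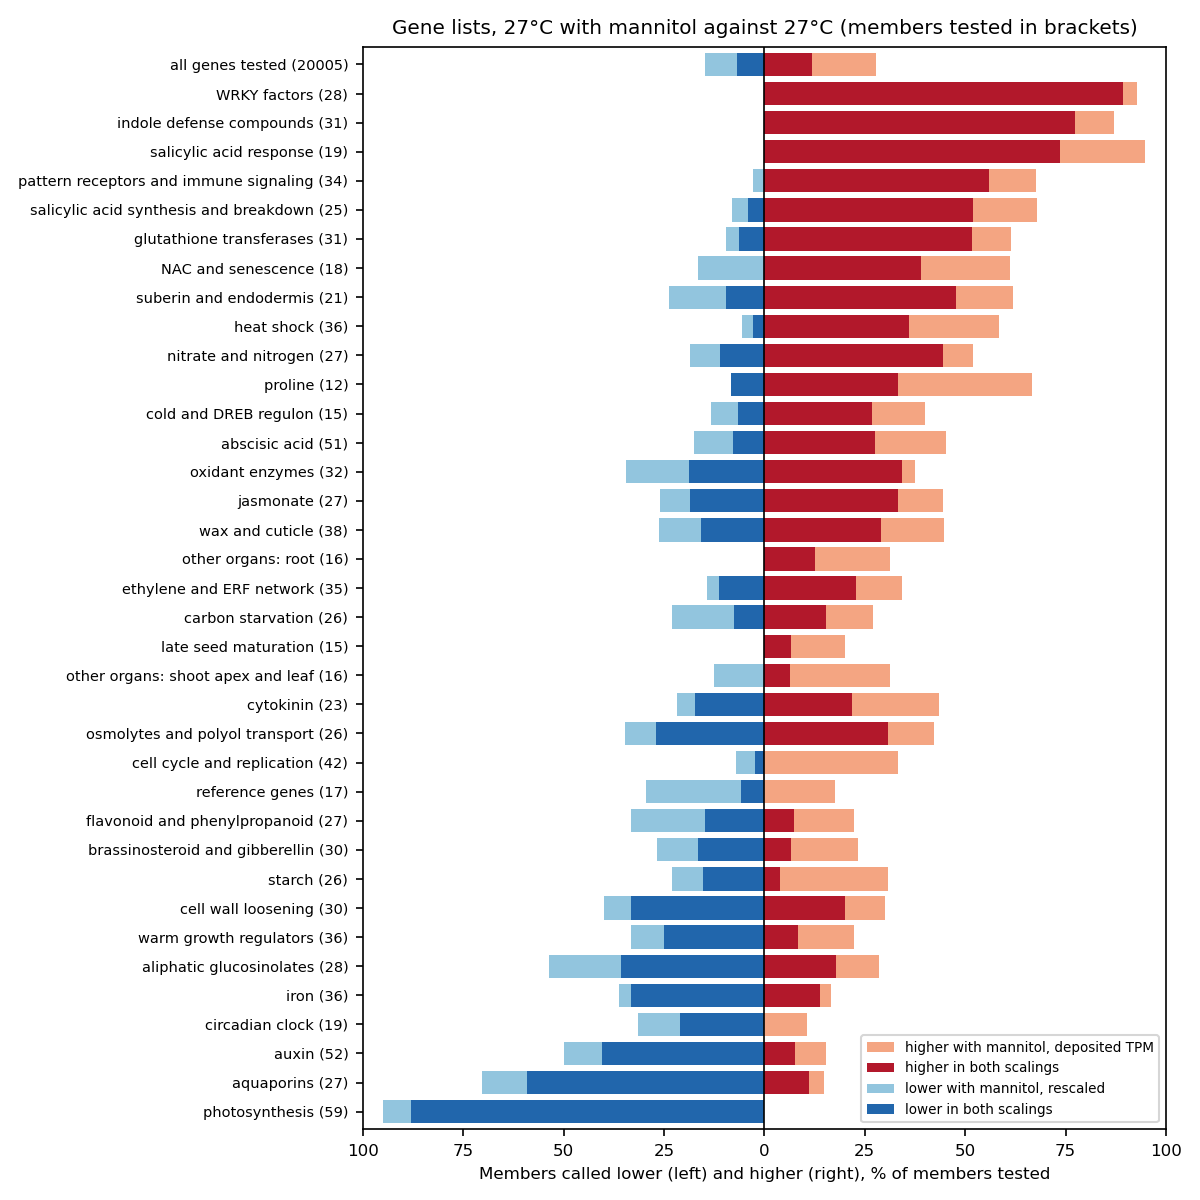
Share of tested members of each of 36 lists, and of all 20005 genes (top), called lower (left, blue) or higher (right, red) with mannitol at 27°C; dark bars count genes called in both scalings, and pale bars add those called in the deposited TPM only (right) or after rescaling only (left). WRKY factors, indole defense and salicylic acid response stand at the top with 25 of 28, 24 of 31 and 14 of 19 higher, and photosynthesis at the bottom with 52 of 59 lower.

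Called in both scalings were 5 higher and 4 lower of 23 cytokinin genes, 9 and 5 of 27 jasmonate genes, 7 and 0 of 18 NAC and senescence genes, 4 and 1 of 15 cold-regulated genes, 4 and 2 of 26 carbon starvation genes, 1 and 4 of 26 starch genes and 2 and 4 of 27 flavonoid and phenylpropanoid genes. Of all genes 11.7% were higher and 6.8% lower in both scalings, and the carbon starvation shares lay close to these. Examples are LOX1, a lipoxygenase, at 1.05 ± 0.08, AOC2, of jasmonate synthesis, at -1.01 ± 0.11, the cold and drought factor ZAT10 at 1.35 ± 0.21, the senescence factor JUB1 at 2.14 ± 0.20 and the cytokinin synthesis gene IPT3 at -0.59 ± 0.11. The 5 lower jasmonate genes became 2 to 3 when mannitol replicate 1 or 2 or 27°C replicate 1 or 3 was left out, and the 4 lower flavonoid genes became 2 without mannitol replicate 2. Cell cycle genes had 14 of 42 higher and 1 lower, and with rescaling 0 higher and 3 lower. The 14 became 5, 7 and 9 without mannitol replicate 1, mannitol replicate 2 and 27°C replicate 3, and the 1 became 0 without mannitol replicate 1 or 27°C replicate 2. Of 15 tested late seed genes 3 were higher (1 without mannitol replicate 1 or 3 or 27°C replicate 1), and 1 in both scalings, EM1, which had 31.2, 44.8 and 63.2 TPM with mannitol and 3.98, 3.74 and 5.06 TPM without it. Shoot apex and leaf markers had 5 of 16 higher and 0 lower, 1 and 0 in both scalings, and the 5 became 2 or 3 without any mannitol replicate at 27°C, 27°C replicate 2 or 21°C replicate 2. Among 17 reference genes 3 were higher and 1 lower, 0 and 1 in both scalings (1 higher without mannitol replicate 3), with ACT2 at -0.35 ± 0.05.

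The same treatment at 21°C shares no library with these and allows each mannitol effect to be compared between temperatures. Across the 20005 genes the log2 differences at 27°C and 21°C had a Pearson correlation of 0.646 and a Spearman correlation of 0.495, given as a description across genes. Mannitol at 21°C was called higher for 3089 genes (15.4%) and lower for 922 (4.61%), with rescaling for 2069 (10.3%) and 1907 (9.53%). Of the 698 genes at least 2-fold higher at 27°C, 386 were so at 21°C too, which is 55.3% of that list and 57.5% of the 671 such genes at 21°C (3.35%). With rescaling 298 were shared, 63.0% of 473 at 27°C and 51.7% of 576 (2.88%) at 21°C. Of the 136 genes at least 2-fold lower, 28 were shared, 20.6% of that list and 36.8% of the 76 such genes at 21°C (0.38%), and with rescaling 38, 18.3% of 208 at 27°C and 38.4% of 99 (0.495%) at 21°C. The difference between the mannitol effects, tested as an interaction, was higher at 27°C for 486 genes (2.43%) and lower for 538 (2.69%), with rescaling 314 (1.57%) and 740 (3.7%). The 486 became 295 and 299 without mannitol replicate 2 or 3 at 27°C, 300 without mannitol replicate 3 at 21°C and 1013 without 27°C replicate 1. The 922 became 595, 576 and 607 without mannitol replicate 1 or 3 or without control replicate 1 at 21°C. In opposite directions, 42 genes were called higher at 27°C and lower at 21°C, and 66 lower at 27°C and higher at 21°C, or 31 and 63 with rescaling.

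In the interaction 0 of 28 WRKY genes were higher and 2 lower, of 25 salicylic acid synthesis and breakdown genes 1 and 2, and of 19 response genes 1 and 2. With rescaling each of the 3 lists had 3 lower. Beside the 2.69% of all genes lower in the interaction, or 3.7% with rescaling, the shares lower in these lists were higher. The 1 of 25 and 1 of 19 also lay above the 2.43% of all genes higher. Each of these shares rests on 1 to 3 genes. Mannitol at 21°C left 25 of 28 WRKY, 18 of 25 synthesis and breakdown and 16 of 19 response genes higher. Their median log2 differences were 1.04, 0.61 and 0.92 at 21°C, beside 1.03, 0.56 and 0.84 at 27°C. The 1 higher in the response list was PR2, at 1.77 (adjusted p = 0.00116). Photosynthesis fell more at 27°C, with 22 of 59 lower in the interaction and 0 higher (30 and 0 with rescaling). Of the aquaporins 8 of 27 were lower and 1 higher, and of the auxin genes 12 of 52 lower and 2 higher. For several of these aquaporins the libraries at 21°C alone varied. PIP1;1 stood at 157, 211 and 223 TPM there and TIP2;2 at 116, 172 and 189 TPM, whereas PIP1;3 stood at 460, 461 and 461 TPM.

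Iron genes differed by temperature. Mannitol left 6 of 36 higher and 12 lower at 27°C, and 19 higher and 3 lower at 21°C, and the interaction was lower for 9 and higher for 0, or 11 and 0 with rescaling. NAS2 had 3.84, 4.38 and 1.44 TPM with mannitol at 27°C and 9.37, 13.2 and 11.6 TPM at 27°C alone, but 20.6, 20.7 and 20.4 TPM with mannitol at 21°C and 3.43, 7.48 and 12.2 TPM at 21°C alone. The libraries at 21°C alone varied widely for such genes: IRT1 stood at 68.4, 163 and 247 TPM there. Heat shock genes had 7 of 36 higher and 0 lower in the interaction, with rescaling 3 and 1. The interactions of HSP17.6C (2.49) and HSP17.4 (1.85) did not pass with a pseudocount of 0.1 (adjusted p = 0.0664 and 0.633) or with voom on rebuilt reads (0.273 and 0.799). The aliphatic glucosinolate list had 9 of 28 higher and 1 lower in the interaction, or 6 and 1 with rescaling. The 9 were TGG1, TGG2, NSP1, NSP5, BGLU23, NAI2, GTR1, SOT17 and FMOGS-OX3, most of them not synthesis genes, and the 1 lower was CYP83A1. The synthesis genes MAM1 and CYP79F1 were not called in the interaction. With mannitol at 21°C 17 of the 28 fell and 1 rose. P5CS1 was at 13.8, 13.8 and 12.8 TPM with mannitol at 21°C and 13.5, 13.2 and 12.6 TPM without it, and its interaction was 1.59 ± 0.25 (adjusted p = 0.00149).

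**Figure D5:**
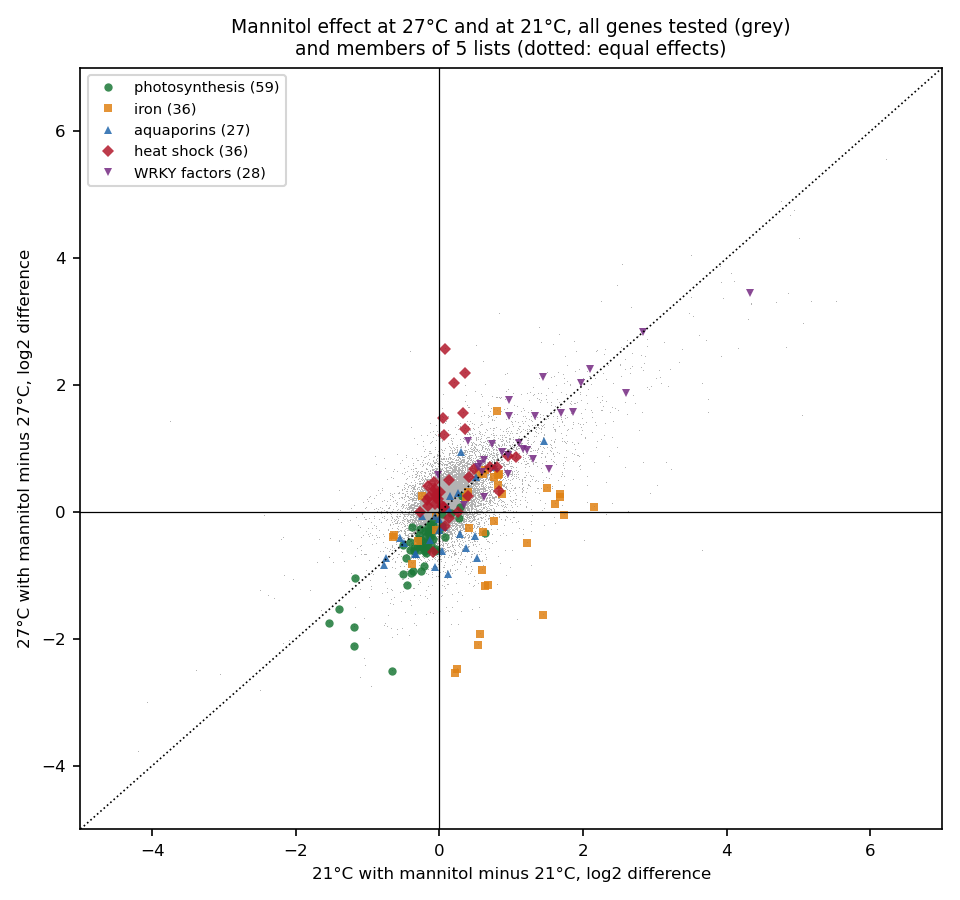
Log2 difference for mannitol at 27°C (vertical) against that at 21°C (horizontal) for 20005 genes (grey) and members of 5 lists (symbols); the dotted line marks equal effects. Many iron genes (orange) lie right of and below the line, several heat shock genes (red) lie above it, and most WRKY genes (violet) lie near it.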

How the data were processed

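The authors deposited 1 table of TPM values for 12 RNA-seq libraries of whole seedlings, made with the NEBNext Ultra RNA kit per the labels' protocols; strand is not stated. Per the submitters' processing notes fastp 0.20.1, HISAT2, DESeq2 1.26.0 and TAIR10 were used; the sources used here name no counting tool, gene lengths or rule for shared reads. The table heads 12 of 13 columns, and the names were read as those of the 12 value columns; 0 columns were left unmapped. Whole reads were rebuilt from the TPM steps (tolerance 0.01; 21760 of 21760 genes above 0 in at least 6 libraries) for depth and 1 alternative only.

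Genes with at least 1 TPM in at least 3 libraries were tested (20005; 7650 were left out) with limma 3.58.1 in R 4.3.3 on log2(TPM + 1), with 4 group means over 12 libraries, a mean-variance trend and Benjamini-Hochberg adjustment. All p-values are two-sided. The fit was tested on simulated data in which few genes changed, equally often up and down. That test cannot show how the shift of scale between the groups affects the calls. Named genes are the key members of 36 lists, the 10 highest and 10 lowest called genes with at least 5 TPM and no overlap, at most 3 called members in each direction from a list (2 if none is called), and the 5 highest and 5 lowest in the interaction. The members, lists and rules were chosen with earlier results of these data known. Of 1129 list genes 1128 were in the table and 1015 were tested. Gene symbols and the 250-base windows come from the TAIR10.1 RefSeq annotation. Where the text gives other list members, they were chosen after their values were seen. Alternatives were another pseudocount (0.1), no filter and a stricter one (5 TPM), rescaling, a replicate block, the 6 libraries at 27°C only, each library left out, and voom.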

Additional observations from a re-analysis of the deposited data

Results flagged for a closer look

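The values below are log2 differences between the effects of mannitol, at 27°C minus at 21°C, for the 74 genes named by the rule whose interaction passed an adjusted p of 0.05 in limma; each was listed because the effects differed between the temperatures. A negative value means that the mannitol effect was lower at 27°C. Causes were not tested.

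In defense and detoxification the values were PR2 1.77, TGG2 1.77, NAI2 0.95, NSP1 0.69, BGLU23 0.50, WRKY30 -0.87, CRK5 -0.99, IGMT2 -1.27, CYP71A12 -3.54, GSTF6 -1.43, GSTU12 -1.05 and GSTF3 -2.21. For CYP71A12 the groups were 36.1, 64.1 and 62.8 TPM with mannitol at 27°C and 17.1, 20.2 and 16.4 TPM at 27°C alone, and 75, 77.1 and 85.6 TPM with mannitol at 21°C and 0.702, 1.33 and 2.54 TPM at 21°C alone. In heat, osmotic, oxidant and abscisic acid lists they were HSP17.6C 2.49, HSP17.4 1.85, P5CS1 1.59, P5CDH 0.61, PLT5 0.52, RD22 0.52, COR413IM1 1.63, COR47 -0.74, KIN1 -1.08, PYL6 -1.37, STS -1.40, SUC2 -0.48 and CSD2 0.54. Of these CSD2 did not pass with rescaling.

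In photosynthesis and carbon use they were LHCB1.2 -1.83, LHCB1.5 -0.92, LHCB3 -0.64, APL3 0.72, AMY3 -0.56, DIN10 -0.86 and BZIP1 -1.18. In iron uptake and water channels they were NAS2 -3.07, FRO2 -2.76, CYP82C4 -2.71, TIP1;1 -0.81, PIP2;3 -1.11 and PIP2;5 0.66. CYP82C4 did not pass without mannitol replicate 3 at 27°C (-2.47, adjusted p = 0.0544). In growth, hormone and clock lists they were PRE1 -1.45, YUC8 -1.29, IAA19 -1.48, IAA29 -1.14, SAUR66 -1.53, DAO2 1.23, GA20OX1 -1.66, BR6OX2 -0.68, GASA4 0.81, ARR7 0.90, ACS4 -1.18, ACS8 -2.10, ACS11 -1.48, LOX1 0.79, AOC2 -0.66, LUX -0.56, CHE -0.76 and CDF5 -1.37. In cell wall and surface lists they were XTH15 -1.48, XTH8 -1.05, EXPA16 -1.40, EXPA15 0.97, EXPA4 0.36, EXPB3 1.2, FAR5 1.11, CYP86B1 1.17, FAR1 -0.95, CASP5 -1.21 and LTP5 -0.61, of which EXPA4 did not pass with rescaling. The others were AT4G36430 1.35, AT2G33850 1.07, AT3G16670 -1.52, AT4G15690 -1.80, AT1G52120 -4.27, AT5G23115 5.18 and UBQ10 -0.32. At 27°C AT5G23115 was listed at 0 in 1 of 3 libraries with mannitol and in 2 of 3 without it, so these groups overlapped.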

How the results depend on the processing

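Without rescaling or with it, the count of genes at 27°C was 5544 or 2346 higher and 1361 or 2983 lower, and at least 2-fold lower 136 or 208; at 21°C it was 922 or 1907 lower, and in the interaction 486 or 314 higher. A pseudocount of 0.1 gave 211 and voom on rebuilt reads 241 genes at least 2-fold lower. The values of RD29A (-0.0056) and ACT7 (-0.048) changed sign with rescaling, and that of RAB18 with rescaling (-0.16), voom (-0.031), without 27°C mannitol replicate 2 (-0.0077) and without 27°C replicate 1 (-0.040); RAB18 reached 0.097 without 27°C mannitol replicate 1. The cause was not tested. Leaving out 1 library at a time gave 3960 to 6036 higher and 1053 to 1459 lower at 27°C, 670 to 791 and 136 to 160 at least 2-fold, 2175 to 3644 higher and 576 to 1190 lower at 21°C, and 295 to 1013 higher and 359 to 755 lower in the interaction. Of 208 named results 18 lost their call with rescaling.

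No strong shared deviation was seen between same-numbered libraries, whose deviations had correlations from -0.0763 to 0.128. A replicate block gave 5353 higher and 1342 lower. The labels do not say whether same-numbered samples were paired, and these values cannot settle it. The 13477706 to 14572531 rebuilt reads per library limit what can be said of genes near 0 TPM.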
